A study of Mus musculus with 4 samples.

Results

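The genes described here encode the calcium switch and the actin track of the muscle thin filament: the troponin T genes Tnnt1, Tnnt2 and Tnnt3, the troponin I genes Tnni1 and Tnni2, the troponin C genes Tnnc1 and Tnnc2, the tropomyosin genes Tpm1 and Tpm2, and the skeletal actin gene Acta1. They were chosen by name, and every region of the deposited oil and tamoxifen list that overlapped a RefSeq gene body or the 2000 bp on either side was taken, which gave 8 of 39231 regions. The list compares captured DNA from satellite cells, the stem cells of skeletal muscle, taken from hindlimb muscles of 9-week-old mice and cultured for 3 days. One group of mice received tamoxifen, which switches on Cre recombinase and so deletes Uhrf1, in 5 daily injections of 150 µl at 20 mg/ml. The other received oil. The series text calls the first Uhrf1-deficient in satellite cells and the second control, and the Cre driver, the Uhrf1 allele, the genotype of the oil mice and the number of mice per library are not given in the sources used here. The study made 1 library for each of 4 groups, the methylated and the non-methylated DNA of the oil and of the tamoxifen mice. The deletion, the drug, the individual mice, the culture and the capture therefore cannot be told apart as sources of a difference, and no test between groups was made. A list of DNA regions measures no expression, so the labelled cell type was not checked against its markers.

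In a muscle fibre, tropomyosin lies along the actin filament and covers the sites to which myosin binds. Troponin C binds calcium, troponin I holds the filament in its inhibited state, and troponin T ties both to tropomyosin, so that calcium uncovers the sites and contraction follows. Fast, slow and cardiac muscle use different genes for most of these subunits, though slow and cardiac muscle share a troponin C. The muscle forms of these genes' products are typically made when myoblasts stop dividing and fuse. Uhrf1 brings the maintenance methyltransferase Dnmt1 to newly copied DNA, and the capture protein MBD2 binds DNA by its methylated CpG sites.

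Of the 10 genes, 4 carried a region and 6 did not. Tpm1 had 5 regions, and Tnnt1, Tnni1 and Tnnc2 had 1 each. Tnnt2, Tnnt3, Tnni2, Tnnc1, Tpm2 and Acta1 had none. A region was found in 38.2% of all 34614 protein-coding and lncRNA genes, in 45.2% of protein-coding genes, and in 36.1% of the 10890 protein-coding genes whose length lay between those of the shortest (2574 bp) and longest (27957 bp) of the 10. The count of 4 in 10 is near these shares and is no result about the genes as a group. At a stricter q limit of 1e-10 the count was 1 in 10 (Tpm1), below the 41.4% of protein-coding genes and the 31.7% of those in the same length range, and this difference was not tested. What follows describes each gene.

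Each listed region is a place where captured DNA was higher in the oil library than in the tamoxifen library after scaling to equal size. The oil library held 19534328 tags (aligned reads, at most 1 per position and strand) and the tamoxifen library 25614791. The header of the list names its alignments oil and tamoxifen without the DNA part, and they are read here as the methylated part. The fold is the authors' ratio of oil to scaled tamoxifen tags over the region's highest point, its summit, with 1 added to both. The limits given beside a fold are 95% Clopper-Pearson limits of the scaled tag ratio, with nothing added. They cover counting error only, and the summit is chosen where oil was high, which biases folds upward. Coordinates are on mm10 (GRCm38). Distances downstream of a start run to the middle of the region, and distances from a gene to a region outside it run to the region's nearer edge.

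**Figure D1:**
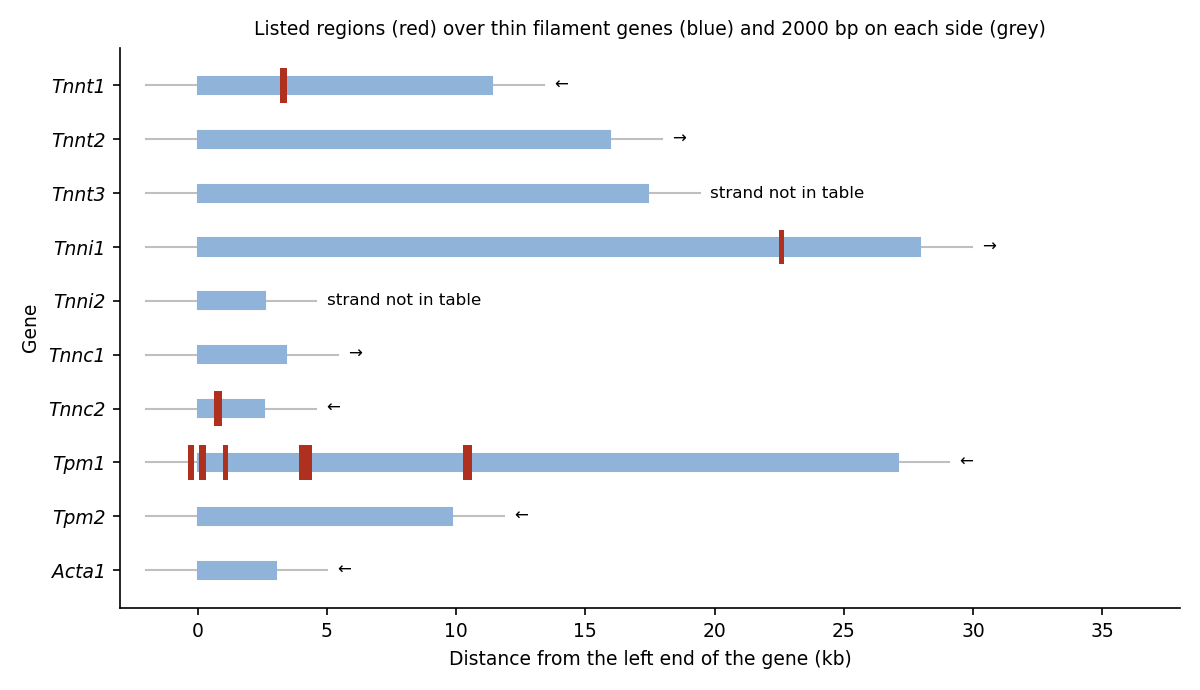
The 10 gene bodies (blue, to scale in kb from the left end), 2000 bp on both sides (grey) and the listed regions (red). Arrows give the direction of transcription where the RefSeq promoter table holds it. The 5 Tpm1 regions lie towards the gene's downstream end, and 6 genes carry no region.

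The promoters were looked at first, because methylation there is the kind most often tied to silencing. RefSeq windows of 300 bases (250 before to 50 after a start, GRCm38.p6) were held for 8 of the 10 genes, 10 windows in all, with 2 starts each for Tnnt2 and Tnni1. Tnnt3 and Tnni2 had no entry. None of the 10 windows overlapped a region, and of all 32851 windows 1.28% did. Of the member windows, the one of Tnnc2 came closest to a region, with 1579 bp between them. The 250 bases upstream of the start are shown for 4 genes that span the range of CpG content, 5′ to 3′ on the gene's strand, with every CpG in capitals. Tnnc1 is, with the second Tnnt2 start, the poorest in CpG among the 10 windows and Tpm1 the richest, Tnnc2 is the gene with the nearest region, and Acta1 is the actin gene.
Tnnc1 (chr14:31208062-31208311, plus strand): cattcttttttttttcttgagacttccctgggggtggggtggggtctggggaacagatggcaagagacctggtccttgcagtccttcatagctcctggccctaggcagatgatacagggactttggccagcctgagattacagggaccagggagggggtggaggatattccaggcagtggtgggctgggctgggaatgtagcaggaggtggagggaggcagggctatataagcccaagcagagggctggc
Tnnc2 (chr2:164779735-164779984, minus strand): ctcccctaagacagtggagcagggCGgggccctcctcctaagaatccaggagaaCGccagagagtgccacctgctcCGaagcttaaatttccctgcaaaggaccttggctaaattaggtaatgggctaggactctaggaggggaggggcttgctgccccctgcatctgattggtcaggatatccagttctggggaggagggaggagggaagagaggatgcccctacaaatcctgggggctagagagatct
Acta1 (chr8:123894776-123895025, minus strand): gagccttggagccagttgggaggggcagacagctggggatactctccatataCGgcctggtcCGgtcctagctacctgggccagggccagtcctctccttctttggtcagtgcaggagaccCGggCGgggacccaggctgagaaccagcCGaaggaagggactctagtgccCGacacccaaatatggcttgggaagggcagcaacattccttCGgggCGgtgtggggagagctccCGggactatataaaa
Tpm1 (chr9:67049214-67049463, minus strand): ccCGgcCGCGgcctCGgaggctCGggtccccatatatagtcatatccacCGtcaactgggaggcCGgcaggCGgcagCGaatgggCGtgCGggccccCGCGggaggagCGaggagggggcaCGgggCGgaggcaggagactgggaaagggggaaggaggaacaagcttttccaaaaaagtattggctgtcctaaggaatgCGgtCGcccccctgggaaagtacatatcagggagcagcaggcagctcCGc

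The printed Tnnc1 sequence holds 0 CpG sites, that of Tnnc2 3, that of Acta1 9 and that of Tpm1 19. The annotated extent of Tpm1 runs beyond the start used for its window. That of Tnni1 does so by far more, beginning at 135783033 while its first window begins at 135799171. No window was held for that upstream part of Tnni1. Over the whole 300 bases, the Tpm1 window held 27 CpG sites, more than 84.5% of all windows, and that of Tpm2 held 20. Acta1 held 12, Tnnt1 6, the windows of Tnni1 5 and 6, Tnnc2 5, those of Tnnt2 5 and 1, and Tnnc1 1. The median over all windows was 7 (quartiles 3 and 20).

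Across the genome a region at a promoter window was found mostly at middling CpG content. It was found in 0.222% of windows with 0 to 2 CpG sites, 0.992% with 3 to 5, 3.94% with 6 to 10, 2.41% with 11 to 20 and 0.123% with more than 20. The Tnnt1 window and 1 of the Tnni1 windows lie in the class with the highest share, and the Tpm1 window lies in the one with the lowest. In every class a window without a region was the rule, so that the 10 member windows without one do not set these genes apart.

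**Figure D2:**
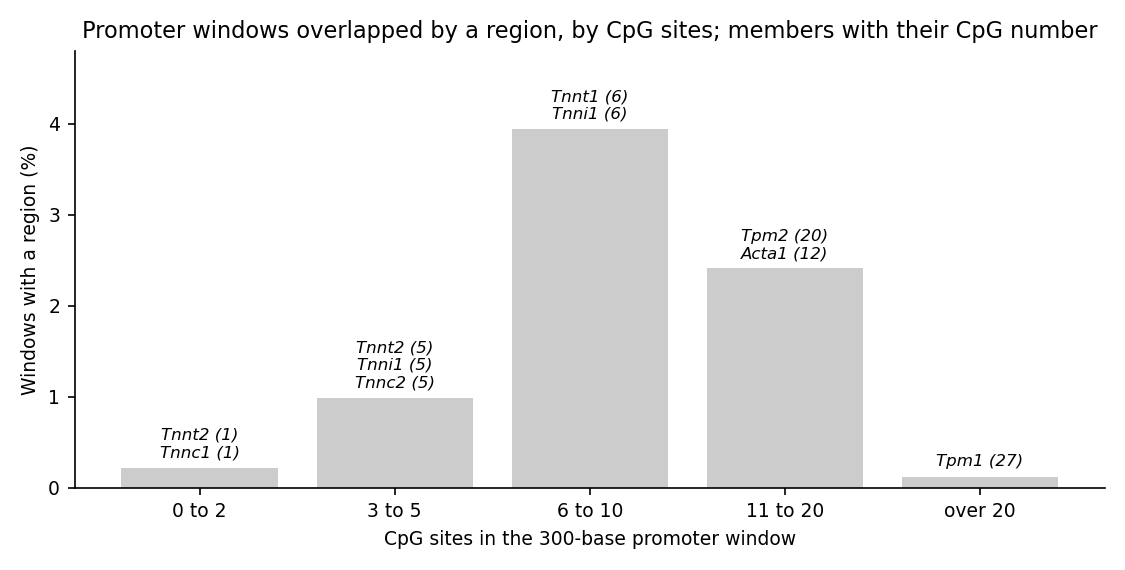
Share of all RefSeq promoter windows overlapped by a region (bars, percent), by the number of CpG sites in the window. Member windows are named above their class with their CpG number, and none of them overlapped a region.

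Motifs bound by regulators of muscle genes, and the TATA box of general transcription, were counted in the same windows on both strands. The E-box CANNTG, bound by the MyoD family, was present in all 10 member windows and in 72.3% of all windows. CATTCC, bound by TEAD factors, was in 4 (Acta1, Tnnc1, Tpm1 and 1 window of Tnnt2) against 14.7% of all. TATAAA was in 2 (Acta1 and Tnnt1) against 13.6%, the CArG box of serum response factor was in that of Acta1 (1.63% of all), and the MEF2 site was in none (3.19% of all). A match is a string of letters and does not show binding.

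Among the troponin T genes, which anchor troponin to tropomyosin, only the slow skeletal gene Tnnt1 carried a region. Tnnt1 (gene ID 21955) spans 4504569 to 4515975 of chromosome 7 on the minus strand. Its region, 4507770 to 4508009, lay inside the gene, 8086 bp downstream of the start. It had 159 oil tags and 134 tamoxifen tags, or 102 after scaling, and a fold of 1.55 (limits 1.23 to 1.97). The tamoxifen library thus kept 64.3% of the oil signal. This was a heavily covered place in both libraries: its tamoxifen tags exceeded those of 99.7% of all listed regions and its oil tags those of 96.4%, while its fold exceeded only 0.133%. With unscaled tamoxifen tags the fold was 1.19 and the region no longer met the authors' limit. A stricter q limit of 1e-06 excluded it as well.

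The other troponin T genes carried nothing listed. Tnnt2, the cardiac gene that embryonic muscle also uses, spans 135836315 to 135852268 of chromosome 1. The nearest regions lay 13916 bp upstream, in Lad1, with 32 oil and 3 tamoxifen tags (fold 10.04), and 13685 bp downstream, with 39 and 9 tags (fold 5.09). Tnnt3, the fast skeletal gene, spans 142498771 to 142516213 of chromosome 7. A region with 31 oil and 8 tamoxifen tags (fold 4.51) began 6606 bp beyond its right end, and on the left none lay within 238844 bp.

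Troponin I is the inhibitory subunit, and here the slow gene Tnni1 carried a region and the fast gene Tnni2 did not. Tnni1 (gene ID 21952) spans 135783033 to 135810989 of chromosome 1 on the plus strand. Its region, 135805526 to 135805726, lay inside the gene, 6205 and 6115 bp downstream of its 2 listed starts. There were 21 tags in oil and 4 in tamoxifen, which gave a fold of 5.43 (limits 2.32 to 27.6). It was thinly covered, with more oil tags than only 1.65% of all regions, and at 201 bp it was as short as the length to which tags were extended, the caller's minimum. It stayed past the limit with unscaled tags (fold 4.40) and past a q limit of 1e-06, but not past one of 1e-10. Tnni2, 2595 bp long, spans 142441816 to 142444410 of chromosome 7.

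Tnni2 and Tnnt3, the fast troponin I and T genes, are neighbours, with 54360 bp between them, and both lay in a single stretch of 262893 bp without a region (chromosome 7, 142259927 to 142522819). The median distance between neighbouring regions was 23293 bp, and this stretch was longer than 94.8% of the 39210 such distances. A long stretch is more likely than a short one to hold a given gene, so that share overstates how unusual it is. In all, 2057 of the distances were this long or longer. The stretch holds 10 protein-coding genes, Lsp1, Syt8 and the protease gene Ctsd among them, and 3 lncRNA genes. The slow and cardiac pair Tnni1 and Tnnt2, 25325 bp apart on chromosome 1, had the region in Tnni1 and the one in Lad1, which lies between them. The pair of Tnnt1 and the cardiac troponin I gene Tnni3, 2329 bp apart, had the region of Tnnt1 alone.

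Troponin C is the calcium sensor. Tnnc2, the fast gene (gene ID 21925), spans 164777161 to 164779734 of chromosome 2 on the minus strand, and its region, 164777796 to 164778105, lay inside it, 1784 bp downstream of the start. It held 37 oil tags against 20 tamoxifen tags, a fold of 2.34 (limits 1.37 to 4.41), and the tamoxifen library kept 41.2% of the oil signal. The fold exceeded that of only 2.2% of all regions. With unscaled tags it was 1.81 and not past the authors' limit, nor was the region past a q limit of 1e-06. The region counts as near a gene end, but the gene is so short that any region inside it would.

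At Tnnc2 and at Tnnt1 the summit lay 0 and 4 bp from the region's edge, which was so (within 5 bp) in 0.566% of all regions. Further regions lay close to Tnnc2, 8230 bp downstream (51 oil and 14 tamoxifen tags, fold 4.45) and 7822 bp upstream in Snx21 (37 and 7 tags, fold 6.0). Tnnc1, the troponin C of slow and cardiac muscle (chromosome 14, 31208312 to 31211729), carried none. The nearest lay 5663 bp upstream in Nisch, with 30 against 4 tags and a fold of 7.65.

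Tpm1, the alpha-tropomyosin gene (gene ID 22003, chromosome 9, 67022590 to 67049672, minus strand), had more regions than any of the other 9 genes. All 5 were past a q limit of 1e-10, which no region of the other genes was, and all 5 stayed past the authors' limit with unscaled tags. Of protein-coding genes of 20 to 40 kb, 2.80% had 5 or more regions, and of all protein-coding genes 5.94% did. The cut of 5 equals the count of Tpm1 itself, the highest among the 10 genes. These shares are therefore a description and no test of how unusual Tpm1 is.

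From the downstream end of Tpm1 inwards, the first region, 67022213 to 67022449, lay just past the gene's end and reached the end of the lncRNA gene Gm30639. Its 33 oil tags stood against 9 tamoxifen tags, for a fold of 4.32 (limits 2.25 to 11.4). The second, 67022632 to 67022899, began 42 bp inside the gene and had 39 against 9 tags, a fold of 5.09 (limits 2.71 to 13.3). The third, 67023575 to 67023778, had 22 tags in oil and no more than 2 in tamoxifen. The caller puts the genome mean of 2.1 scaled tags in place of any smaller background, which fixed the fold here at 7.42, so that only a lower limit of 3.55 on the tag ratio can be given.

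The fourth region, 67026521 to 67027009, was the best covered of the 5, at 54 oil and 14 tamoxifen tags with a fold of 4.71 (limits 2.77 to 9.86), and at 489 bp was longer than 94.6% of all regions. The fifth, 67032869 to 67033193, had 47 against 9 tags, a fold of 6.10 (limits 3.32 to 15.9). The first 3 regions were separated by 182 and 675 bp, and the next gaps were 2742 and 5859 bp. All 5 lay within 10981 bp, and the remaining 16479 bp up to the gene's upstream end held none. The RefSeq table gives no exons, so the place of these regions among the alternative exons of Tpm1 is not given.

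The folds within Tpm1 ran from 4.32 to 7.42, and the limits of each overlapped those of the others. The summits were at least 419 bp apart, more than the 201 bp of an extended tag, so no tag was counted at more than 1 of them. Tpm2, the beta-tropomyosin gene (chromosome 4, 43513726 to 43523583), had no region. The nearest began 10959 bp upstream in Tln1, with 19 oil and 4 tamoxifen tags (fold 4.94).

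**Figure D3:**
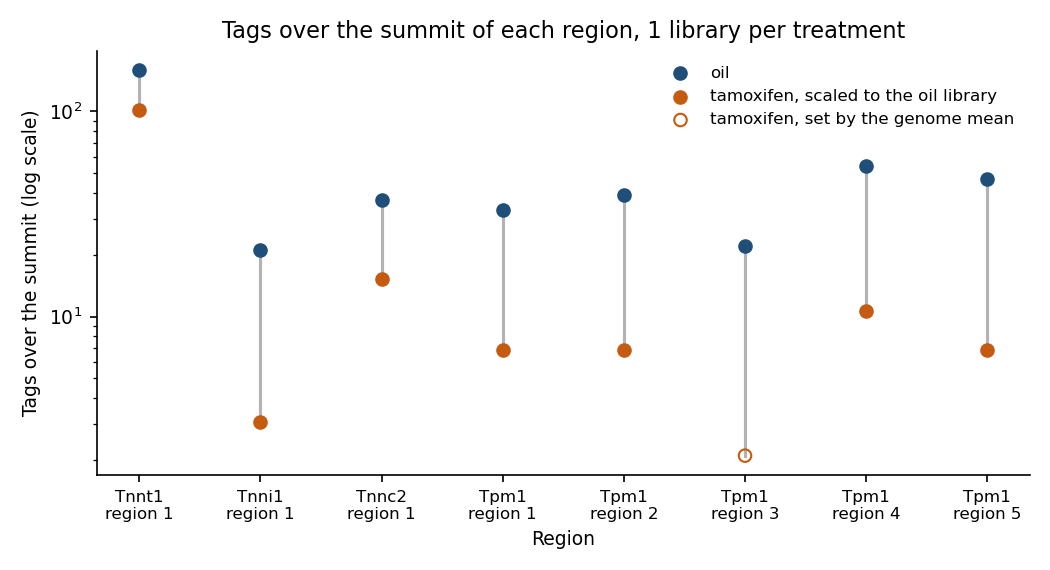
Oil tags (blue) and scaled tamoxifen tags (orange) over the summit of each of the 8 regions, on a log axis. Tnnt1 stands at 159 against 102 tags, and the open point in Tpm1 is a value set by the genome mean.

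Acta1, the skeletal alpha-actin gene and the main actin of adult muscle fibres (chromosome 8, 123891758 to 123894775), had no region. On the left, the nearest lay 37773 bp away in Ccsap with 49 oil and 25 tamoxifen tags (fold 2.49). On the right, it lay 20375 bp away in Nup133 with 30 and 10 tags (fold 3.59). Both folds were below the lower quartile of all regions.

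Side by side, the 8 regions had a median fold of 4.90, against 4.61 over all 39231 (quartiles 3.67 and 5.87), and 4 of the 8 lay between these quartiles. Because 5 of the 8 belong to Tpm1, medians over the 8 mostly describe that gene. The median coverage of the 8 regions was 38 oil and 9 tamoxifen tags, against 51 and 14 over all regions. The limits of the Tnnt1 region lay wholly below those of Tnni1 and of every Tpm1 region and overlapped those of Tnnc2. The limits of Tnnc2 overlapped those of Tnni1 and of all Tpm1 regions.

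**Figure D4:**
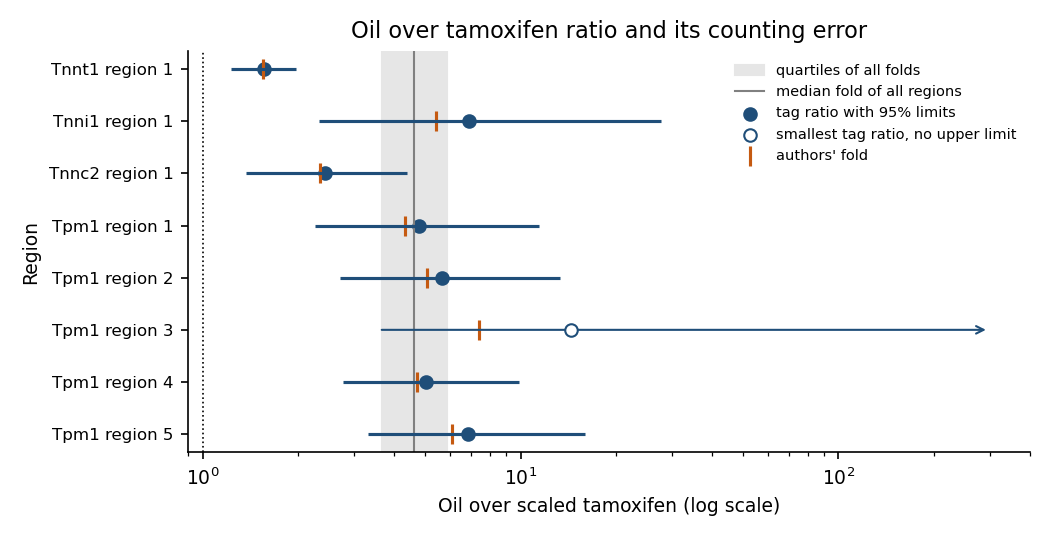
Scaled ratio of oil to tamoxifen tags with exact 95% limits (blue) and the authors' fold (orange) on a log axis, beside the median and quartiles of all folds (grey). The Tnnt1 limits end at 1.97, and the open point of Tpm1 region 3 has no upper limit.

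By fibre type, the slow genes Tnnt1 and Tnni1 had a region and Tnnc1 had none, and the fast gene Tnnc2 had one and Tnnt3 and Tnni2 had none. Longer genes carried regions more often throughout the genome. The share was 13.2% of protein-coding genes under 5 kb, 28.3% from 5 to 10 kb, 43.6% from 10 to 20 kb and 53.4% from 20 to 40 kb. Of the 4 genes under 5 kb only Tnnc2 had a region, Tpm2 in the next class had none, Tnnt1 alone of 3 had one in the third, and both genes of 20 to 40 kb, Tnni1 and Tpm1, had one. Near an end, within 2000 bp, regions lay at Tnnc2 and at the downstream end of Tpm1, 2 of 10 genes against 18.4% of protein-coding genes and 20.3% of those in the length range of the 10.

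**Figure D5:**
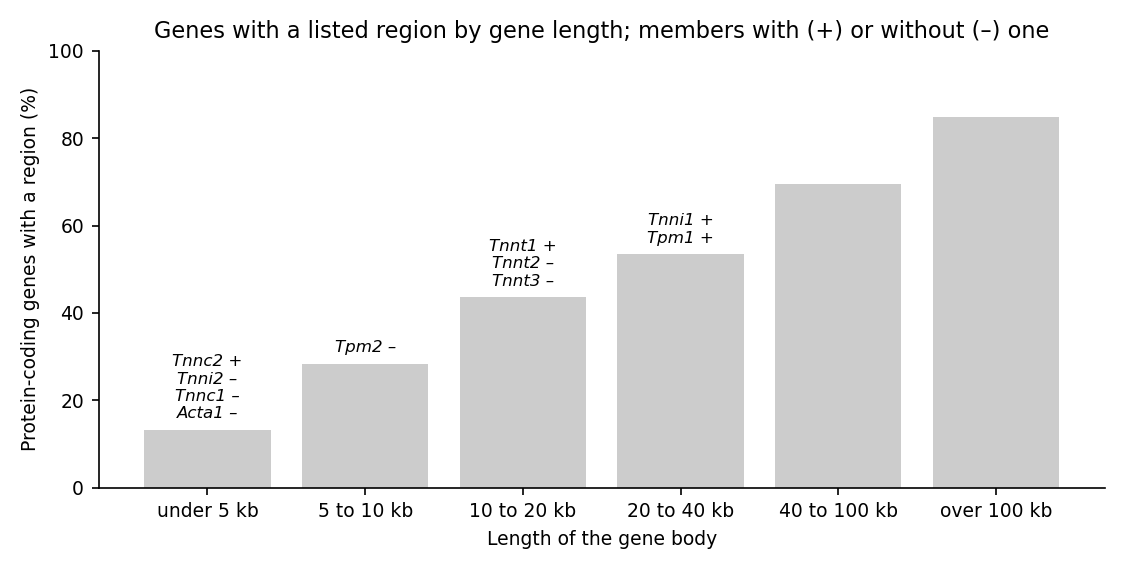
Share of protein-coding genes with a listed region (bars, percent) by length of the gene body. Members are named above their class with a plus where they had a region and a minus where they had none.

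A gene without a region was not shown to be unchanged. Where the tamoxifen library had 2 or fewer tags, 12 oil tags were needed to reach the p-value of the weakest listed region. At 10 tamoxifen tags 24 were needed (fold 2.90), and at 100 tags 121 were (fold 1.58). These counts concern the summit alone. A listed region also had to reach the caller's minimum length of 201 bp, and the fewest oil tags in any listed region were 13. Equal capture in both libraries, no methylation, more capture after tamoxifen and too few tags all leave a gene off the list.

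Other proteins of the thin filament gave 14 of 27 genes with a region, 13 of them past a q limit of 1e-10, against 45.2% and 41.4% of protein-coding genes. Their 45 regions had a median fold of 4.94. The highest folds were at the tropomyosin gene Tpm3 (14.84, 45 oil tags against 2 or fewer), the actin anchoring gene Nrap (11.22, 53 against 5), the capping protein gene Capzb (10, 70 against 8), the nebulin gene Neb (8.71, 26 against 2 or fewer) and the tropomodulin gene Tmod1 (8.07, 24 against 2 or fewer). The folds of Tpm3, Neb and Tmod1 were set by the genome mean. Paralogues of the genes above, named after their values were seen, were mixed. Among tropomyosins Tpm3 had 3 regions and Tpm4 none. Among actins the cardiac gene Actc1 (4.56-fold, 101 against 28 tags) and the smooth muscle gene Acta2 (5.13-fold, 55 against 13) had 1 each, while Actg2, Actb and Actg1 had none, as did Tnni3. The 27 genes have a median length of 17855 bp against 10632.5 bp for the 10, so their counts are not directly comparable. Earlier results of these data were known for Neb when the list was chosen.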

How the data were processed

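The 4 libraries held the methylated and the non-methylated DNA of the oil and of the tamoxifen mice, with MBD2 as the capture protein. From these, 1 list of 39231 regions was analysed. Per the file headers, it was called with MACS 2.2.6 by the authors (oil as treatment, tamoxifen as control, q cutoff 1e-04, tags of 130 bp extended to 201 bp, larger library scaled to the smaller by 0.763). The name of the list puts tamoxifen before oil, and the direction of every fold here follows the command line instead. Trim Galore, HISAT2 and mm10 come from the submitters' processing notes. The deposited pileup is a signal, the oil tags over the summit. The deposited fold enrichment is a ratio. The headings of 2 deposited columns were lost, and they were read as -log10 p and -log10 q values. These compare libraries, not conditions.

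Tamoxifen tags were computed from pileup and fold (whole within 0.02 tags in 38251 regions, at the genome mean in 980). The -log10 p values recomputed from them lay within 0.00017 of those deposited. Redundant rates were 0.45 (oil) and 0.30 (tamoxifen). Any overlap of 1 bp counted. The placing of reads that fit several paralogues or pseudogenes was not given in the sources used here, which bears on the actin and tropomyosin genes. Gene bodies came from the RefSeq table of GRCm38.p6, and strand from its promoter table. Overlap counts, tag recovery and intervals were tested on simulated data. Python 3.11.15, pandas 2.3.3 and scipy 1.17.1 were used. All 10 genes and all their regions are named. In other lists the rule names the 5 genes of highest fold, and those without a region where there are 8 or fewer. Members and lists were chosen with earlier results of these data known. Alternatives were stricter q limits, other windows, the region midpoint, unscaled tags and the tag ratio.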

Additional observations from a re-analysis of the deposited data

How the results depend on the processing

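At a q limit of 1e-06, 2 of the 10 genes (Tnni1 and Tpm1) had a region and 1 had one near an end. At 1e-10, 1 gene (Tpm1) remained, with 5 regions, against 31.7% of protein-coding genes in the length range of the 10, and 1 gene had a region near an end. With unscaled tamoxifen tags, an alternative chosen after seeing the data, 2 genes (Tnni1 and Tpm1) were left. Gene bodies alone and the region midpoint gave the same 4 genes, and 10000 bp on both sides gave 6, adding Tnnt3 and Tnnc1. No share over all genes was computed for the 1e-06, unscaled, gene body, midpoint or 10000 bp counts. Nor was one computed for the near-end counts at the stricter limits. Whether these counts differ from those of all genes is therefore not known. The median fold of the 8 regions was 4.90. It was 3.83 with unscaled tags, 5.37 as a tag ratio with nothing added, and 5.09 at a q limit of 1e-10. No paired analysis was possible because each group has 1 sample, and for the same reason no replicate could be left out. Places with few tags in both libraries could not be listed.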

Other observations

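Genes of the thick filament, the myosin partner of the actin filament, carried regions in 14 of 17 cases, all 14 with one past a q limit of 1e-10, against 45.2% and 41.4% of protein-coding genes. Their 45 regions had a median fold of 4.54. The genes have a median length of 24019 bp, and of protein-coding genes of 20 to 40 kb 53.4% had a region. The counts are therefore not directly comparable with the shares over all protein-coding genes. Earlier results of these data were known for Myh3 and Myh7 when the list was chosen. The highest folds were at the slow myosin gene Myh7 (12.84, 51 oil against 4 tamoxifen tags), the embryonic myosin gene Myh3 (11.56, 37 against 3), the perinatal myosin gene Myh8 (8.90, 130 against 18), and the M-band genes Myom2 (8.82, 28 against 3) and Myom1 (8.71, 26 against 2 or fewer). Myl3, Mybpc2 and Myom3 had none. The difference from the thin filament genes was not tested.

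Marker genes of other muscle types had a region in 3 of 6 cases for smooth muscle and 3 of 5 for cardiac muscle, against 45.2% of all protein-coding genes. For smooth muscle these were Smtn (7.65-fold), Acta2 (5.13) and Cnn1 (4.77), while Actg2, Myh11 and Tagln had none. For cardiac muscle they were Myh6 (6.68-fold), Nppa (6.21) and Actc1 (4.56), while Tnni3 and Myl7 had none. The cardiac genes have a median length of 4414 bp, against 18510.5 bp for the smooth muscle genes. Their count is therefore not directly comparable with the 45.2%, and no difference was tested. Of 6 satellite cell markers, Calcr (4.01-fold) and Itga7 (3.87) had 1 each, and Pax7, Myf5, Myod1 and Cdh15 had none, again against 45.2%. Myf5 (4020 bp) and Myod1 (2619 bp) fall among the genes under 5 kb, of which 13.2% had a region. Pax7 (96472 bp) and Calcr (79036 bp) fall among those of 40 to 100 kb, of which 69.6% had one. Regions measure captured DNA, not expression, and so give neither the identity nor the share of these cells in the cultures.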
